A study of Mus musculus with 12 samples.

Results

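Loss of the homeobox gene Hoxa9 was set directly against loss of β-catenin in LSK cells. This fraction of mouse bone marrow lacks markers of mature lineages, carries Sca1 and Kit, and holds blood-forming stem cells and early multipotent progenitors. The comparison covered every autosomal gene in the count table. Of 55471 genes in all, 51155 are autosomal, and 16503 of these passed the filter on low counts. The libraries compared were 4 of the 12 in the series: 2 of HOXA9_KO and 2 of Bcat_KO. HOXA9_KO is the single knockout of Hoxa9 and Bcat_KO the single knockout of the β-catenin gene, Ctnnb1. The genotype field words them as HOXA9 knockdown and beta-catenin knockdown. Both groups were taken from mice that had received a primary transplant, 6 weeks after they were given tamoxifen. Levels are also given for dKO, in which β-catenin and Hoxa9 were both targeted, and for WT, with 2 libraries each from the same experiment. The sources used here do not give the strain, the age, the driver of the tamoxifen-dependent step, the number of animals or any pooling. In a transplanted animal some host cells may remain. No label says that the 2 libraries of a group are from different animals. The p-values therefore measure only the spread between libraries of the same group, taken over all 12 libraries of the series. This spread may be technical.

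Hoxa9 is a transcription factor of stem cells and early progenitors that is switched off as blood cells mature. β-catenin carries the canonical Wnt signal into the nucleus, where it works with Tcf and Lef factors, and it also ties cadherins to the cytoskeleton at cell junctions. Within the LSK fraction, long-term stem cells are mostly quiescent and are marked by genes such as Procr, Slamf1 and Fgd5, whereas multipotent progenitors cycle more and express Cd34, Flt3 and early granule genes.

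The Bcat_KO libraries stood apart from the other groups of the series. Library totals were 17569709 and 24162780 counts in HOXA9_KO and 29943990 and 40553891 counts in Bcat_KO, yet 21790 and 22098 autosomal genes had counts in HOXA9_KO, against 17298 and 16929 in the deeper Bcat_KO libraries. The 1457 odorant and vomeronasal receptor genes, which LSK cells are not known to use, summed to 78.4 and 57.7 CPM (counts scaled by the size of the library) in HOXA9_KO and to 14.4 and 11.1 CPM in Bcat_KO, so the low signal spread over these genes was weaker in Bcat_KO. On the second principal component, which held 21.1% of the variance, HOXA9_KO lay at -53.4 and -49.8, close to dKO at -67.9 and -74.1, and Bcat_KO lay at 70.8 and 77.8. The Y-linked gene Ddx3y was at 61.4 and 66.2 CPM in HOXA9_KO and at 62.3 and 60.6 CPM in Bcat_KO, while Xist was at 0 and 0.582 CPM in HOXA9_KO and at 11.2 and 21.9 CPM in Bcat_KO. In WT, Ddx3y was at 1.88 and 2.87 CPM and Xist at 182 and 163 CPM, so for these sex-linked genes WT stood apart from both knockouts, and sex and genotype cannot be told apart wherever a knockout is set beside WT. The part of any of these values in the results was not tested. The tag S4 is carried by 1 library of each group, and no other tag is used more than once in the series. Whether the Bcat_KO libraries were sequenced in another run is not given, and a difference between runs and a difference between genotypes cannot be told apart.

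The targeted genes were read first. Hoxa9 (ENSMUSG00000038227, GRCm38 chromosome 6, 52223100 to 52231089, minus strand) had 12.2 and 8.36 CPM in HOXA9_KO and 49.2 and 61.9 CPM in Bcat_KO. The log2 difference, HOXA9_KO minus Bcat_KO, was -2.44 ± 0.17 (SE), with an adjusted p of 3.35e-05 in edgeR's quasi-likelihood test with Benjamini-Hochberg adjustment over all genes fitted. Ctnnb1 (ENSMUSG00000006932, chromosome 9, 120929216 to 120960507, plus strand) had 363 and 349 CPM in HOXA9_KO and 276 and 267 CPM in Bcat_KO, a log2 difference of 0.39 ± 0.07 (adjusted p = 0.00473). Its level in Bcat_KO, 271 ± 6.04 CPM (SD, n = 2), also lay below the 315 and 342 CPM of WT, but only modestly. Counts per gene do not show whether particular exons are missing, so the size of the Ctnnb1 difference does not measure how completely the protein was lost. Prmt1, an arginine methyltransferase that the series title names beside the 2 factors, had 272 and 272 CPM in HOXA9_KO and 310 and 301 CPM in Bcat_KO and was not called (log2 difference -0.17, adjusted p = 0.108).

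Of the 16503 genes tested, 2726 (16.5%) differed at an adjusted p under 0.05, which is what a call means below. In HOXA9_KO 1725 (10.5%) were higher and 1001 (6.07%) were lower than in Bcat_KO, and 833 and 326 of them by at least 1 on the log2 scale. Without 1 library the count of genes called higher ranged from 903 to 1263 and that of genes called lower from 452 to 565. The calls kept in every one of these 4 fits numbered 845, of which 560 were higher and 285 lower in HOXA9_KO. Of the calls 63.3% were higher in HOXA9_KO, but when only these 4 libraries were fitted, 717 were higher and 716 lower, or 50%. The median log2 difference over all genes tested was 0.055. Among genes with a mean under 1 CPM, 298 were higher and 24 lower of 4105. Between 20 and 100 CPM, 630 were higher and 437 lower of 5064. Gene lists are described by their counts and their median beside these background values.

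**Figure D1:**
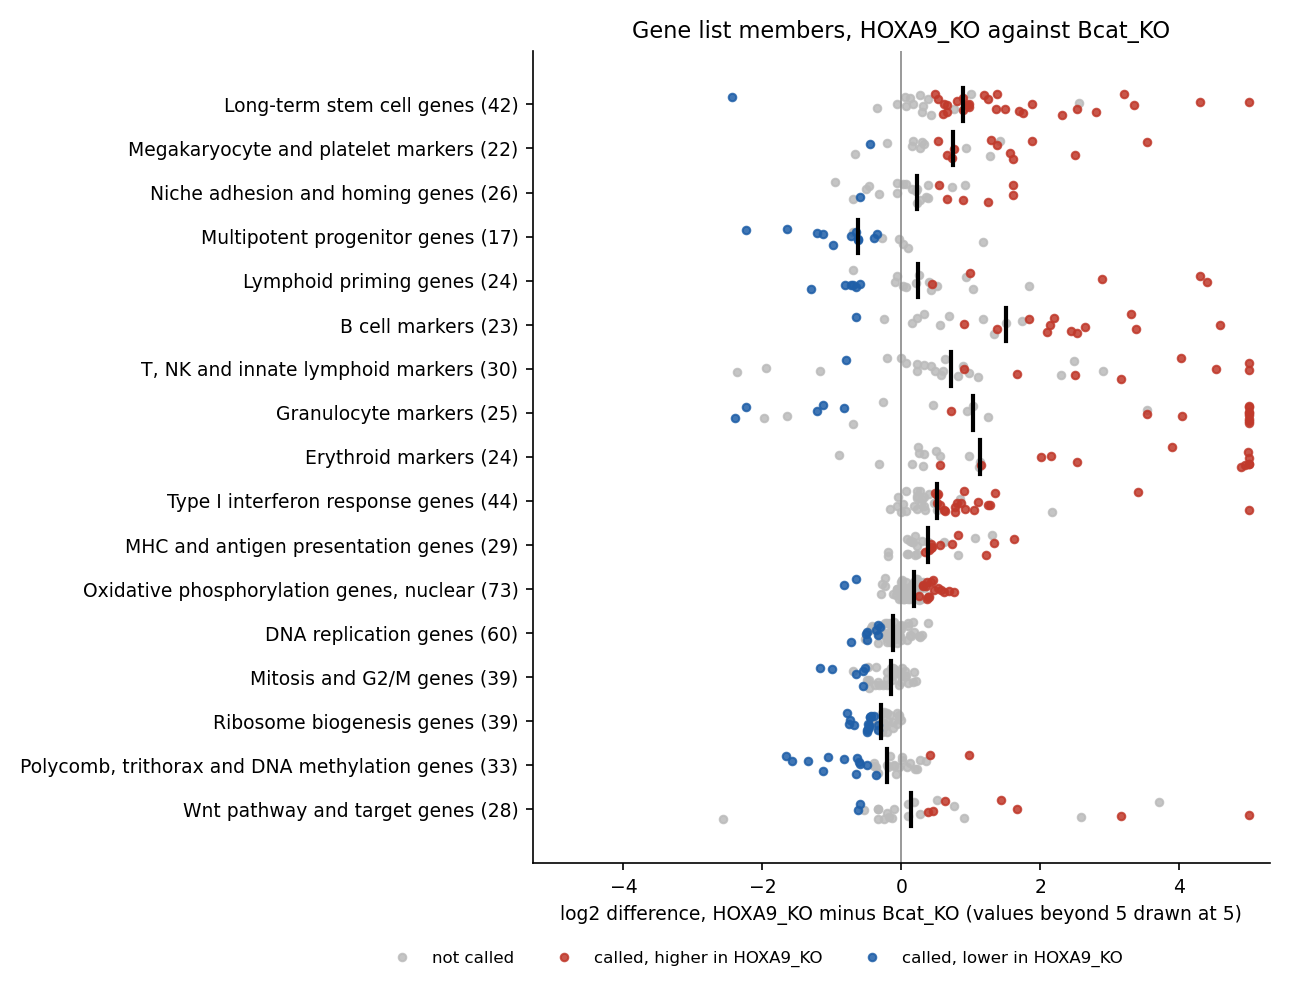
Log2 difference, HOXA9_KO minus Bcat_KO (horizontal axis), of every tested member of 17 gene lists (vertical axis, with the number tested in brackets); red and blue points are genes called higher and lower in HOXA9_KO, grey points were not called, and black bars are list medians; values beyond 5 are drawn at 5. Long-term stem cell genes lie mostly to the right of 0 (median 0.88) and multipotent progenitor genes mostly to the left (median -0.63).

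Stem cell and multipotent progenitor genes differed in opposite directions. Of 42 long-term stem cell genes, 27 were higher in HOXA9_KO and 1 was lower, Hoxa9 itself, with a median log2 difference of 0.88. Of 17 multipotent progenitor genes none was higher, 11 were lower, and the median was -0.63. In every fit without 1 library, 21 of the 27 and 6 of the 11 kept their calls. Summed over the list, long-term stem cell genes stood at 3770 and 3410 CPM in HOXA9_KO and 2470 and 2400 CPM in Bcat_KO, and multipotent progenitor genes at 2230 and 2650 CPM in HOXA9_KO and 4390 and 4290 CPM in Bcat_KO. In bulk libraries a larger share of cells of a type and more RNA per cell cannot be told apart.

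Pdzk1ip1, a membrane protein gene used to mark the most primitive stem cells, had 101 and 95.3 CPM in HOXA9_KO and 36.6 and 33.1 CPM in Bcat_KO, 2.81 times as much (log2 difference 1.49 ± 0.12, adjusted p = 6.33e-05). Tek, the angiopoietin receptor Tie2 of quiescent stem cells, had 50.6 and 54.7 CPM in HOXA9_KO and 20.5 and 23.8 CPM in Bcat_KO (1.25 ± 0.14, adjusted p = 0.000341). Neo1, a netrin receptor, had 38.6 and 31.7 CPM in HOXA9_KO against 1.33 and 2.22 CPM in Bcat_KO, a log2 difference of 4.29 ± 0.45 (adjusted p = 0.000269). These groups did not overlap, and for Neo1 the WT libraries, at 4.24 and 1.57 CPM, lay by Bcat_KO while dKO, at 61.2 and 94.1 CPM, lay above HOXA9_KO. Clec1a, a C-type lectin receptor, was at 45.7 and 44.8 CPM in HOXA9_KO and at 8.83 and 6.98 CPM in Bcat_KO (2.52 ± 0.30, adjusted p = 0.000556). Slamf1, which encodes the stem cell surface marker CD150, was at 42.3 and 38.3 CPM in HOXA9_KO and at 15.3 and 16.1 CPM in Bcat_KO (1.36 ± 0.25, adjusted p = 0.0052). Vwf, the von Willebrand factor gene that marks platelet-biased stem cells, was at 353 and 236 CPM in HOXA9_KO and at 87.8 and 71.9 CPM in Bcat_KO (1.88 ± 0.28, adjusted p = 0.00177). Esam, an adhesion molecule of stem cells, showed a log2 difference of 0.88 ± 0.13 (adjusted p = 0.00195) and Gata2, a transcription factor that stem cells depend on, one of 0.49 ± 0.11 (adjusted p = 0.0115). The Gata2 call was lost without Bcat_KO S4 and without HOXA9_KO S5, at adjusted p of up to 0.057. The list also held members that were not called: Meis1, the cofactor of Hoxa9, at -0.07 ± 0.12, Hlf at -0.35 ± 0.15 and Mecom at 0.29 ± 0.28.

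On the progenitor side, Cd27, a costimulatory receptor that rises as stem cells become progenitors, had 62.5 and 68.1 CPM in HOXA9_KO and 155 and 148 CPM in Bcat_KO. Its log2 difference of -1.21 ± 0.08 carried an adjusted p of 2.05e-05, and its mean was 2.31 times as high in Bcat_KO. Cebpa, the transcription factor that starts granulocyte and monocyte development, had 20.3 and 27.5 CPM in HOXA9_KO and 73 and 77.3 CPM in Bcat_KO (-1.65 ± 0.16, adjusted p = 0.00017). Csf3r, the receptor of granulocyte colony-stimulating factor, followed at 90.7 and 68 CPM in HOXA9_KO and 172 and 174 CPM in Bcat_KO (-1.13 ± 0.12, adjusted p = 0.000262). Cd34 was at 422 and 345 CPM in HOXA9_KO and at 742 and 769 CPM in Bcat_KO (-0.98 ± 0.13, adjusted p = 0.00118). For Cd27, Cebpa and Cd34 the Bcat_KO libraries lay near WT, and for Csf3r they lay above it. Mpo, the myeloperoxidase gene, was at 153 and 267 CPM in HOXA9_KO and at 1030 and 958 CPM in Bcat_KO, with WT at 413 and 322 CPM, so its level in Bcat_KO exceeded every other library shown. Flt3, the receptor that marks lymphoid-primed progenitors, was called lower (-0.66 ± 0.18, adjusted p = 0.029), but the call was lost whichever of the 4 libraries was left out, at adjusted p of up to 0.122. Flt3 was lower in both knockouts than in WT, at 162 and 167 CPM in HOXA9_KO and 253 and 264 CPM in Bcat_KO against 537 and 421 CPM in WT. Cd48, a surface protein of progenitors, had 74.5 and 89.5 CPM in HOXA9_KO and 81.2 and 79.4 CPM in Bcat_KO and was not called (0.03 ± 0.19).

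**Figure D2:**
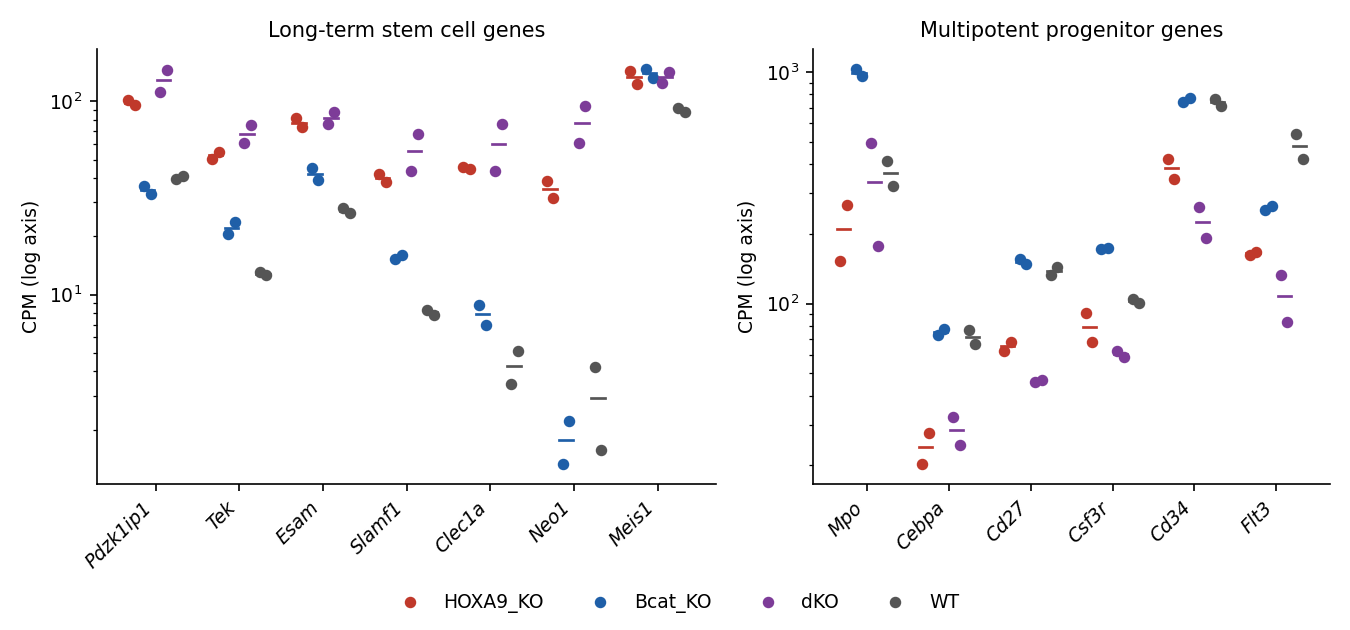
CPM on a log axis (vertical) of 7 long-term stem cell genes and 6 multipotent progenitor genes (horizontal) in HOXA9_KO, Bcat_KO, dKO and WT; each point is 1 library and each bar the mean of 2. HOXA9_KO lies above Bcat_KO for the stem cell genes except Meis1 and below it for the progenitor genes.

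The genes that define the sort were close in one case and apart in the other. Kit had 461 and 354 CPM in HOXA9_KO and 424 and 430 CPM in Bcat_KO (-0.07 ± 0.11, adjusted p = 0.725). Ly6a, which encodes Sca1, had 135 and 154 CPM in HOXA9_KO and 73.7 and 74.3 CPM in Bcat_KO (0.96 ± 0.12, adjusted p = 0.000817), with WT between them at 93.2 and 103 CPM. Of 10 lineage antigens used to deplete mature cells, 3 were called higher in HOXA9_KO, and none lower, and none of these calls was kept in every fit without 1 library. Among them Ly6g, a neutrophil antigen, had 0 and 2 CPM in HOXA9_KO and no count in Bcat_KO, so its value rests on HOXA9_KO S5. Without that library its log2 difference was 0.00 (adjusted p = 1.0). In addition the T cell gene Cd3e had no count in these 4 libraries.

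Megakaryocyte and platelet genes, which primitive stem cells share with the platelet lineage, followed the stem cell list. Of 22 such genes 11 were higher and 1 was lower in HOXA9_KO (median 0.75). Only 3 of the 11 kept their calls in every fit without 1 library. Itgb3, the integrin β3 subunit, had 71.5 and 91.9 CPM in HOXA9_KO and 26 and 29.4 CPM in Bcat_KO (1.56 ± 0.13, adjusted p = 7.56e-05). Rab27b, a GTPase of platelet granules, was higher by 1.38 ± 0.20 (adjusted p = 0.00144). Pf4, the platelet factor 4 gene, was at 50.2 and 93.4 CPM in HOXA9_KO and at 14.5 and 10.9 CPM in Bcat_KO (2.50 ± 0.52, adjusted p = 0.00883), and its adjusted p was 0.0618 without Bcat_KO S4. Selp, the P-selectin gene, was not called: it had 125 and 135 CPM in HOXA9_KO and 123 and 112 CPM in Bcat_KO (0.15 ± 0.14, adjusted p = 0.526), while WT had 28.8 and 34.4 CPM. Of 26 genes for adhesion and homing to the marrow niche, 6 were higher and 1 was lower (median 0.22). The 6 were Tek, Esam, the integrin genes Itga4 and Itga6, Jam3 and Alcam. Alcam, an adhesion molecule of the immunoglobulin family, was at 84.3 and 59.9 CPM in HOXA9_KO and at 22.9 and 24.6 CPM in Bcat_KO (1.60 ± 0.20, adjusted p = 0.000764). Cd44, the hyaluronan receptor, was lower (-0.60 ± 0.13, adjusted p = 0.0107, and 0.0619 without HOXA9_KO S5).

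The Hox clusters split by position. Of 16 Hoxa and Hoxb genes that passed the filter, out of 21, the 5 called higher in HOXA9_KO were Hoxb5, Hoxb6, Hoxb7, Hoxb8 and Hoxb9, which lie side by side on chromosome 11 between 96271457 and 96306121, and the 2 called lower were Hoxa9 and Hoxa5. Hoxb8 (ENSMUSG00000056648) had 46.7 and 26.2 CPM in HOXA9_KO and no count in either Bcat_KO library. Against a floor of 3 counts over both Bcat_KO libraries, which is 0.0406 CPM, its level was at least 864-fold higher (adjusted p = 4.42e-05). Hoxb8 was at 31.6 and 50.4 CPM in dKO and at 1.67 and 0.74 CPM in WT, so the groups with Hoxa9 targeted were high and the others low. Hoxb9 had 10.5 and 8.15 CPM in HOXA9_KO and 0.635 and 0 CPM in Bcat_KO (4.94 ± 0.99, adjusted p = 0.00796). Without Bcat_KO S3, which held all Bcat_KO counts of Hoxb9, the fitted log2 difference was 10.76. Hoxb7 had 2.13 and 1.08 CPM in HOXA9_KO and no count in Bcat_KO, at least 37.8-fold higher over the same floor (adjusted p = 0.0156, and 0.0616 without Bcat_KO S4). Hoxb6 had 10 and 8.69 CPM in HOXA9_KO and 0.508 and 1.04 CPM in Bcat_KO (3.57 ± 0.49, adjusted p = 0.00124), and Hoxb5 had 15.2 and 10 CPM in HOXA9_KO and 3.14 and 1.93 CPM in Bcat_KO (2.31 ± 0.42, adjusted p = 0.00498). Every one of these genes separated HOXA9_KO and dKO from Bcat_KO and WT.

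The remaining Hoxb genes tested, Hoxb2 to Hoxb4, were not called. Hoxb4, known for expanding stem cells when overexpressed, had 13.8 and 14 CPM in HOXA9_KO and 8.58 and 9.24 CPM in Bcat_KO (0.64 ± 0.27, adjusted p = 0.124). Hoxb5os, an antisense gene of the same stretch, was not called (-0.60). The strand setting of the counting is not given, so reads of overlapping sense and antisense genes there cannot be assigned with certainty. In the Hoxa cluster, Hoxa7 had 27.4 and 29.3 CPM in HOXA9_KO and 30.1 and 26.5 CPM in Bcat_KO, overlapping. Hoxa10, the neighbour of Hoxa9, had 13 and 9.28 CPM in HOXA9_KO and 19.6 and 20.3 CPM in Bcat_KO and missed the threshold (-0.84 ± 0.30, adjusted p = 0.0815). Hoxa5 had 7.70 and 7.95 CPM in HOXA9_KO and 13.4 and 17 CPM in Bcat_KO (-0.96 ± 0.22, adjusted p = 0.0132), a call that was lost without Bcat_KO S4, HOXA9_KO S4 or HOXA9_KO S5 at adjusted p of up to 0.0943. The remaining Hoxa genes had log2 differences from -0.74 (Hoxa4) to 0.08 (Hoxa3), none called. The median over both clusters, 0.11, hides this split, and with a filter at a mean of 5 CPM it was -0.018.

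**Figure D3:**
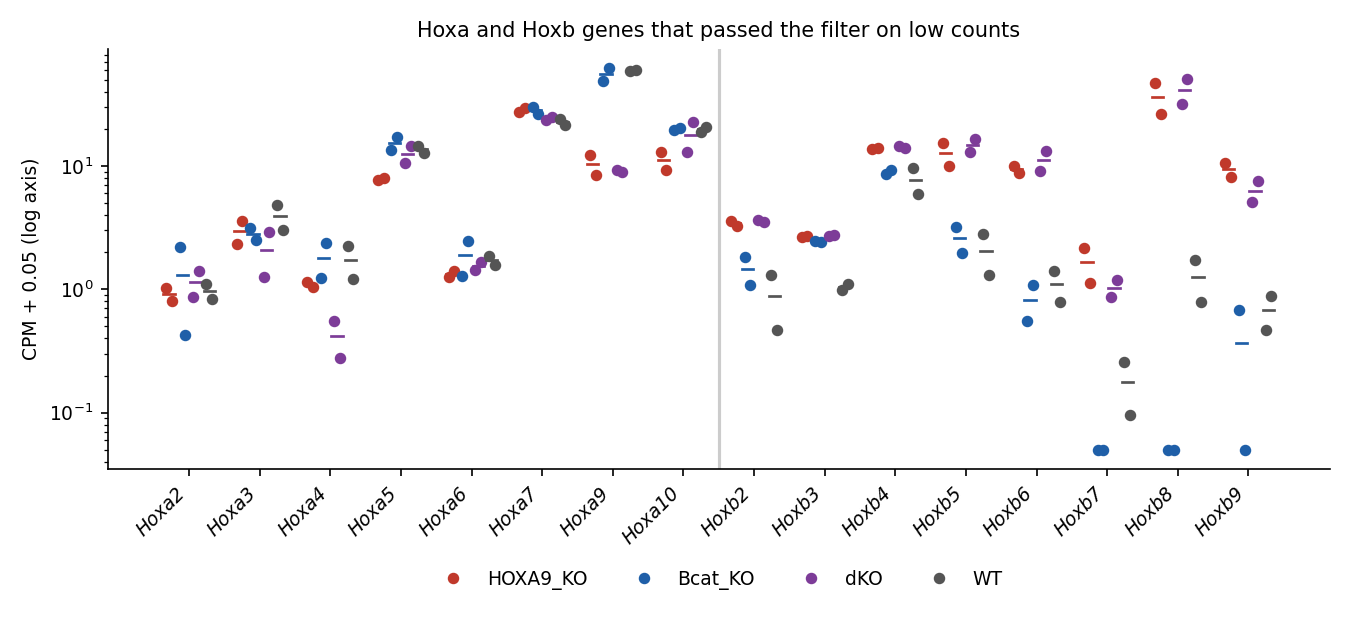
CPM plus 0.05 on a log axis (vertical) of the 16 Hoxa and Hoxb genes tested (horizontal, in cluster order) in HOXA9_KO, Bcat_KO, dKO and WT; points are libraries, bars means of 2, and points at the bottom are libraries with no count. Hoxb5 to Hoxb9 are high in HOXA9_KO and dKO and low in Bcat_KO and WT, and Hoxa9 shows the opposite order.

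The largest single differences came from genes inside and outside these lists. Among the 15 largest in the higher direction, Matn4, which encodes the matrix protein matrilin 4, had 47.8 and 34.1 CPM in HOXA9_KO and 0.0635 and 1.13 CPM in Bcat_KO (6.01 ± 0.88, adjusted p = 0.00167). Without Bcat_KO S4 the difference of Matn4 was 9.23. Cyp4b1, a cytochrome P450 gene, was at 4.64 and 3.37 CPM in HOXA9_KO and at 0.127 and 0 CPM in Bcat_KO (6.03 ± 0.78, adjusted p = 0.000863), and its difference was 9.54 without Bcat_KO S3. Cldn5, a tight junction gene of endothelium and stem cells, was at 2.84 and 6.66 CPM in HOXA9_KO and had no count in Bcat_KO, at least 123-fold higher over the floor. The other 12 were Hoxb8, Hoxb9, 6 granulocyte genes and 4 red cell genes.

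In the lower direction, Hnf4a (chromosome 2, 163506808 to 163572910), a nuclear receptor best known from liver and gut, had 1.31 and 0.582 CPM in HOXA9_KO and 28.5 and 25.2 CPM in Bcat_KO, a mean 28.9 times as high in Bcat_KO (log2 difference -4.86 ± 0.39, adjusted p = 5.86e-05). The dKO libraries were at 0.774 and 0.38 CPM and the WT libraries at 17.8 and 27.8 CPM, so the libraries with Hoxa9 targeted were low and the others high. Emcn, the sialomucin endomucin of endothelium and stem cells, shared that order with 2.95 and 2.75 CPM in HOXA9_KO, 19.5 and 18.4 CPM in Bcat_KO, 3.1 and 3.3 CPM in dKO and 17.1 and 18.7 CPM in WT (-2.73 ± 0.19, adjusted p = 3.35e-05). Vldlr, the very low density lipoprotein receptor, had 6.01 and 2.16 CPM in HOXA9_KO and 53.9 and 51.6 CPM in Bcat_KO (-3.71 ± 0.36, adjusted p = 0.000203), and here Bcat_KO also lay above WT, at 22 and 26.7 CPM. Rtn2, a reticulon of the endoplasmic reticulum, was high in Bcat_KO and low in the other 3 groups: 1.86 and 1.54 CPM in HOXA9_KO, 12.9 and 10.9 CPM in Bcat_KO, 1.12 and 2.43 CPM in dKO and 1.41 and 1.43 CPM in WT (-2.81 ± 0.42, adjusted p = 0.00179). Wfdc17 (-2.46 ± 0.30, adjusted p = 0.000679) and Timp3, a tissue inhibitor of metalloproteinases (-2.45 ± 0.46, adjusted p = 0.0053), were also lower. Lars2, a mitochondrial leucyl-tRNA synthetase gene, spread widely within Bcat_KO: it had 106 and 194 CPM in HOXA9_KO and 1500 and 469 CPM in Bcat_KO (-2.72, adjusted p = 0.00997), and -1.63 with an adjusted p of 0.0629 without Bcat_KO S3, and its call was also lost without HOXA9_KO S4 (adjusted p = 0.0572).

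Of the 15 largest in the lower direction, 3 resemble other genes in sequence by their names and are uncertain. Psme2b had 1.31 and 2.91 CPM in HOXA9_KO and 18.7 and 22.6 CPM in Bcat_KO (-3.27 ± 0.38, adjusted p = 0.000515), while Psme2, the proteasome activator gene it is named after, had 145 and 159 CPM in HOXA9_KO and 126 and 135 CPM in Bcat_KO and was not called (0.22 ± 0.09, adjusted p = 0.123). Rps27rt had 1.64 and 3.49 CPM in HOXA9_KO and 24.8 and 17.4 CPM in Bcat_KO (-3.03 ± 0.37, adjusted p = 0.00067), while Rps27 was not called (-0.10 ± 0.08, adjusted p = 0.394). Rpl39l had 2 counts in all in HOXA9_KO and 328 in Bcat_KO, a ratio of 94.0 in favour of Bcat_KO with a 95% counting interval from 25.8 to 779, and its call was lost whichever library was left out, at adjusted p of up to 0.142. Processed pseudogenes as a class leaned the same way: 14 were higher and 54 lower in HOXA9_KO of 592 tested (11.5% called), with a median of -0.46. The lean was not limited to them. Of 517 antisense genes 7 were higher and 17 lower (median -0.32). Of 463 genes in the annotation class TEC 7 were higher and 22 lower (median -1.09). Of 461 lincRNA genes, in contrast, 19 were higher and 15 lower (median 0.03). How reads were divided between near-identical copies in these libraries was not tested. The remaining 5 of the 15 (Tnnt3, Cma1, AC170998.1, Kcnn1 and Chkb) each lost their call without at least 1 library, at adjusted p of up to 0.175, 0.0573, 0.201, 0.132 and 0.249 in that order.

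Lymphoid priming genes divided evenly. Of 24 lymphoid priming genes 5 were higher and 6 lower in HOXA9_KO (median 0.24). Lower were Foxp1, a forkhead factor, at 86.5 and 75.7 CPM in HOXA9_KO and 137 and 147 CPM in Bcat_KO (-0.81 ± 0.12, adjusted p = 0.00196), Runx2 (-0.70 ± 0.11, adjusted p = 0.00207), the interleukin 12 subunit gene Il12a (-1.30 ± 0.22, adjusted p = 0.00362), and Notch1, Satb1 and Flt3, whose calls were each lost without at least 1 of the 4 libraries. Higher were Rag1, the recombinase subunit, at 10.9 and 18.1 CPM in HOXA9_KO and 1.02 and 2.88 CPM in Bcat_KO (2.88 ± 0.49, adjusted p = 0.00361), Ets1 (0.99 ± 0.16, adjusted p = 0.00248), Ccr9, Ccr7 and Bcl11a. Dntt, the terminal transferase of early lymphoid cells, had 353 and 349 CPM in HOXA9_KO and 353 and 396 CPM in Bcat_KO (-0.09 ± 0.20), with WT at 1380 and 1230 CPM, so both knockouts lay far below WT and did not differ beyond their spread.

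B cell genes were higher in HOXA9_KO in 12 of 23 cases and lower in 1, with a median of 1.51, and 7 of the 12 kept their calls in every fit without 1 library. Spib, an Ets factor of B cells and plasmacytoid dendritic cells, had 7.15 and 15 CPM in HOXA9_KO and 0.445 and 0.471 CPM in Bcat_KO (4.58 ± 0.38, adjusted p = 6.33e-05). Vpreb3, part of the pre-B cell receptor machinery, had 13.2 and 29.3 CPM in HOXA9_KO and 2.22 and 1.89 CPM in Bcat_KO (3.38 ± 0.52, adjusted p = 0.00206), and Pax5, the B lineage commitment factor, had 15.2 and 27.4 CPM in HOXA9_KO and 4.32 and 3.58 CPM in Bcat_KO (2.44 ± 0.44, adjusted p = 0.00445). Over the whole list both knockouts lay below WT: it summed to 560 and 902 CPM in HOXA9_KO, 331 and 373 CPM in Bcat_KO, 558 and 312 CPM in dKO and 1450 and 1650 CPM in WT. Immunoglobulin transcripts of antibody-secreting cells were present too. The J chain gene Jchain was at 1900 and 2290 CPM in HOXA9_KO and at 666 and 983 CPM in Bcat_KO, and the part of admixed B lineage cells in these differences was not tested. Of 30 T, NK and innate lymphoid genes, 8 were higher and 1 lower (median 0.72), but 2 of the 8 kept their calls in every fit without 1 library. Il2rb, a receptor subunit for interleukins 2 and 15, led the kept ones with 7.43 and 11.2 CPM in HOXA9_KO and 1.14 and 2.12 CPM in Bcat_KO (2.50 ± 0.47, adjusted p = 0.00561, not called by limma-voom).

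Granulocyte genes went in opposite directions. Of 25 tested, 11 were higher and 5 lower in HOXA9_KO. The 5 lower ones were the primary granule genes Mpo, Ctsg (cathepsin G) and Prtn3 (proteinase 3), which early myeloid cells make, with Csf3r and Padi4 (an arginine deiminase), and these calls were kept whichever library was left out. Prtn3 had 124 and 211 CPM in HOXA9_KO and 405 and 366 CPM in Bcat_KO (-1.21 ± 0.18, adjusted p = 0.00203), and Ctsg had 16.7 and 37.2 CPM in HOXA9_KO and 134 and 149 CPM in Bcat_KO (-2.39 ± 0.40, adjusted p = 0.00336). The higher ones included the late granule and calprotectin genes of maturing neutrophils, and their values came mainly from 1 library. Ngp had 23.8 CPM in HOXA9_KO S4 and 327 CPM in HOXA9_KO S5, against 0.254 and 3.16 CPM in Bcat_KO (6.61, adjusted p = 0.00587), 3.73 with an adjusted p of 0.0188 without HOXA9_KO S5, and 9.43 without Bcat_KO S4. Chil3, a chitinase-like protein gene, had 9.83 and 76.5 CPM in HOXA9_KO and 0.0635 and 0.189 CPM in Bcat_KO (8.28, adjusted p = 0.00208, and 6.15 without HOXA9_KO S5). Retnlg, a resistin-like gene, had 0.601 and 9.49 CPM in HOXA9_KO and no count in Bcat_KO, at least 139-fold higher over the floor, a call lost without Bcat_KO S4 or HOXA9_KO S5 at adjusted p of up to 0.0513. Ltf, the lactoferrin gene, had 8.85 and 120 CPM in HOXA9_KO and no count in Bcat_KO, at least 1770-fold higher over the floor (adjusted p = 0.00323). S100a9 had 16.9 and 280 CPM in HOXA9_KO and 8.07 and 9.97 CPM in Bcat_KO (4.04, adjusted p = 0.0194), and 0.92 with an adjusted p of 0.341 without HOXA9_KO S5. Likewise Lcn2 stood at 2.25 and Camp at 2.50 without that library, with adjusted p of 0.137 and 0.143, and the calls of S100a9, Lcn2 and Camp were also lost without at least 1 Bcat_KO library. Only 3 of the 11 higher calls, those of Ngp, Ltf and Chil3, were kept in all 4 fits without 1 library, and limma-voom did not make these 3 calls. These neutrophil genes were present in dKO and WT as well: Ngp was at 654 and 428 CPM in dKO and at 454 and 120 CPM in WT. The level varied widely within and between those groups and was low in both Bcat_KO libraries, and the part of mature neutrophil RNA in it was not tested.

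**Figure D4:**
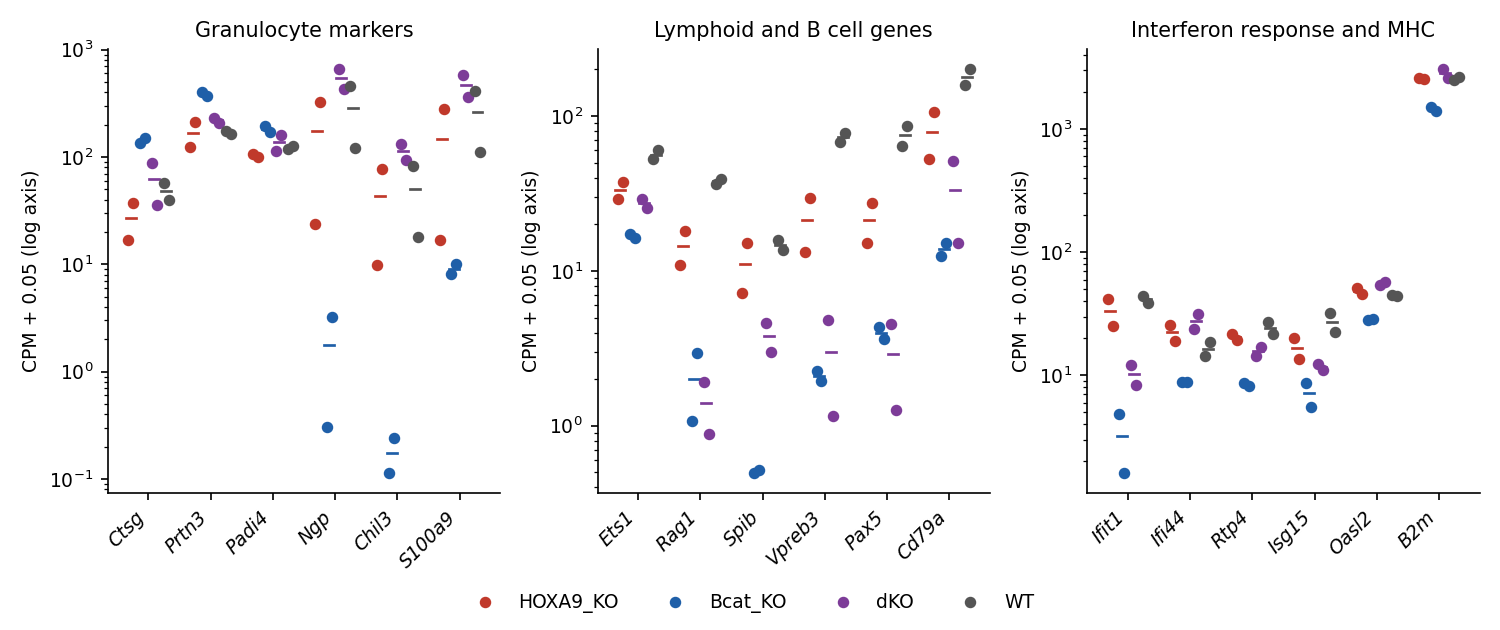
CPM plus 0.05 on a log axis (vertical) of granulocyte genes (left), lymphoid and B cell genes (middle) and interferon response and MHC genes (right) in HOXA9_KO, Bcat_KO, dKO and WT; points are libraries and bars means of 2. Ctsg, Prtn3 and Padi4 are highest in Bcat_KO, whereas Ngp, Chil3 and the interferon genes are lowest there.

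Erythroid genes were higher in HOXA9_KO in 12 of 24 cases and lower in none (median 1.12), and 9 of the 12 kept their calls in every fit without 1 library. Hbb-bs, an adult β-globin gene, had 130 and 74.3 CPM in HOXA9_KO and 4.16 and 2.38 CPM in Bcat_KO (4.98 ± 0.77, adjusted p = 0.00218), with WT at 617 and 145 CPM. Hba-a1 and Hba-a2, near-identical α-globin copies between which reads may be split, differed by 4.95 and 4.88. The β-globin gene Hbb-bt of the same list was not called (0.32, adjusted p = 0.742), and its difference was -0.13 without HOXA9_KO S4. Slc4a1, the band 3 anion exchanger, was at 7.86 and 8.78 CPM in HOXA9_KO and at 0.127 and 0 CPM in Bcat_KO (7.11 ± 1.25, adjusted p = 0.00402), and its difference was 10.6 without Bcat_KO S3 and 5.99 without Bcat_KO S4. The calls of Hbb-bs, Hba-a1, Hba-a2 and Slc4a1 were not made by limma-voom. Car2, a carbonic anhydrase also used by stem cells, differed by 0.56 ± 0.07 (adjusted p = 0.00105). The early erythroid factor Klf1 was not called, at 1.64 and 4.16 CPM in HOXA9_KO and 5.27 and 2.07 CPM in Bcat_KO. In all 12 erythroid calls the Bcat_KO libraries lay below HOXA9_KO, dKO and WT alike. Over all 2726 calls, Bcat_KO stood beyond these groups, above or below, in 76.1%.

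Endothelial and stromal markers gave 6 higher and 3 lower of 23 (median 1.44, or 1.31 with members lacking counts set at their floor), and the median was 0.223 without HOXA9_KO S5, 0.792 without Bcat_KO S3 and 3.192 without Bcat_KO S4. The list summed to 676 and 643 CPM in HOXA9_KO and 578 and 578 CPM in Bcat_KO. Among its defining markers Cdh5 had 2.57 and 1.91 CPM in HOXA9_KO and 0.0635 and 0.754 CPM in Bcat_KO, and Lum 0.109 and 0.0832 CPM in HOXA9_KO and none in Bcat_KO. The 6 called higher were Kdr, Tie1, Ramp2, Cldn5, Stab2 and Fap. Kdr had 5.35 and 4.04 CPM in HOXA9_KO and 0.445 and 0.471 CPM in Bcat_KO (adjusted p = 0.000994). Tie1 differed by 0.71 ± 0.14 (adjusted p = 0.00768), Ramp2 by 3.87 ± 0.54 (adjusted p = 0.00132) and Fap by 3.95 (adjusted p = 0.00624). Stab2 had 52 counts in HOXA9_KO and none in Bcat_KO, at least 30.3-fold higher over the floor (adjusted p = 0.00409, not called by limma-voom). The 3 called lower were Emcn (-2.73, adjusted p = 3.35e-05), Egfl7 (-0.60, adjusted p = 0.00258) and Pdgfrb (-0.70, adjusted p = 0.019). Emcn had the smallest adjusted p of all 9 calls of the list. The difference of Pdgfrb was -0.51 without HOXA9_KO S5. Pecam1 (-0.07) and Eng (0.15), also on the list, were not called. The part of admixed endothelial or stromal cells in these differences was not tested.

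Interferon response genes leaned higher in HOXA9_KO. Of 44 tested, 20 were higher and none lower (median 0.51), and 9 of the 20 kept their calls in every fit without 1 library. In 17 of the 20, both Bcat_KO libraries lay below all libraries of HOXA9_KO, dKO and WT. That order was common: it held for 1239 of all 2726 calls, of which 1725 were higher in HOXA9_KO. Ifit1, an antiviral RNA-binding protein, had 41.7 and 25 CPM in HOXA9_KO, 4.76 and 1.56 CPM in Bcat_KO, 12 and 8.35 CPM in dKO and 43.8 and 38.8 CPM in WT (3.41 ± 0.45, adjusted p = 0.000941). Rtp4 had 21.5 and 19.2 CPM in HOXA9_KO and 8.58 and 8.15 CPM in Bcat_KO (1.28 ± 0.18, adjusted p = 0.00136). Ifi44 had 25.8 and 19 CPM in HOXA9_KO and 8.70 and 8.86 CPM in Bcat_KO (1.35 ± 0.20, adjusted p = 0.00197), and Oasl2 had 50.7 and 45.9 CPM in HOXA9_KO and 28 and 28.7 CPM in Bcat_KO (0.77 ± 0.09, adjusted p = 0.000621). Isg15, a ubiquitin-like modifier, was called (1.24 ± 0.26, adjusted p = 0.0096), at an adjusted p of up to 0.0619 without Bcat_KO S4 or HOXA9_KO S4. The classical interferon markers Mx1 and Mx2 were low in every group and not called.

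A short promoter element that interferon-activated factors bind was found in some of these genes. The letters GAAA, any 2 bases and GAAA again were searched on both strands in windows from 250 bases before to 50 bases after the start of each gene (RefSeq, GRCm38.p6). Of the 44 genes 31 matched the promoter table, and 15 of these (48.4%) held the letters, against 3.99% of all 27025 genes in the table. Below are the 200 bases before the start of the 4 genes called higher with the smallest p-values whose match lies there. They are written 5′ to 3′ along the gene with the matches in capitals (overlapping matches run together), and a match that starts with TTTC is the same element on the other strand.
Ifit1, chr19:34640689-34640888, plus strand: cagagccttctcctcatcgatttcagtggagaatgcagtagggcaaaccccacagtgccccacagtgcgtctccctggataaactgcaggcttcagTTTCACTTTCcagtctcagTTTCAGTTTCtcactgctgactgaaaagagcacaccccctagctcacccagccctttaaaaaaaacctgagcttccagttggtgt
Trim30a, chr7:104465194-104465393, minus strand: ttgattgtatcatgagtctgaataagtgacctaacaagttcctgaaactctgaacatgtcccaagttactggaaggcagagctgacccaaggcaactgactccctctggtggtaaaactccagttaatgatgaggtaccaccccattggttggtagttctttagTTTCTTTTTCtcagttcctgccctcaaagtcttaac
Isg15, chr4:156200819-156201018, minus strand: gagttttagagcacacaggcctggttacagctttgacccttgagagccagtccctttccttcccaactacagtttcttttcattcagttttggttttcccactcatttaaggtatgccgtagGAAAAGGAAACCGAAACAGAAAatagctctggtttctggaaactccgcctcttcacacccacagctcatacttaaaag
Bst2, chr8:71537473-71537672, minus strand: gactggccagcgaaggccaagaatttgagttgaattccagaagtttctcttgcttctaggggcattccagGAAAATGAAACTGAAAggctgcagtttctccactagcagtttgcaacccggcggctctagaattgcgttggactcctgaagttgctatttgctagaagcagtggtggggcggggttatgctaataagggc

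Ifit1 holds 2 matches, starting 104 and 85 bases before the start, and it had the largest difference of the 4. Isg15 holds 3 overlapping matches, starting 78, 72 and 66 bases before the start, Bst2 2, and Trim30a 1. Trim30a differed by 0.63 ± 0.10 (adjusted p = 0.00213) and Bst2 by 0.51 ± 0.13 (adjusted p = 0.022). The Bst2 call was lost without Bcat_KO S4 (adjusted p = 0.135) and without HOXA9_KO S5 (adjusted p = 0.102). A match is a description of the sequence and does not show that a factor bound there.

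Genes of antigen presentation, many of which interferon also induces, leaned the same way by smaller amounts. Of 29 tested, 11 were higher in HOXA9_KO and none lower (median 0.39), and 4 of the 11 kept their calls in every fit without 1 library. B2m, the light chain of MHC class I, had 2580 and 2550 CPM in HOXA9_KO and 1520 and 1410 CPM in Bcat_KO (0.81 ± 0.08, adjusted p = 0.000191), with WT at 2490 and 2640 CPM. H2-Q6, a nonclassical class I gene, had 390 and 382 CPM in HOXA9_KO and 230 and 236 CPM in Bcat_KO (0.73 ± 0.07, adjusted p = 9.87e-05), and H2-Q4 differed by 0.40 ± 0.07 (adjusted p = 0.00517). Several H2-Q and H2-T genes are similar in sequence, so reads may be split between them. The class II chaperone gene Cd74, at 430 and 677 CPM in HOXA9_KO and 223 and 217 CPM in Bcat_KO, was called (1.33 ± 0.34, adjusted p = 0.0239), but at an adjusted p of up to 0.13 without Bcat_KO S3, Bcat_KO S4 or HOXA9_KO S5. In all 11 calls the Bcat_KO libraries lay below those of HOXA9_KO, dKO and WT, while 76.1% of all called genes had Bcat_KO above or below them.

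Ribosome biogenesis genes were lower in HOXA9_KO. All 39 tested had a negative difference, 16 of them were called, and 9 of these kept their calls in every fit without 1 library (median -0.29, from -0.377 to -0.231 over the other settings). Nolc1, a nucleolar chaperone, had 132 and 121 CPM in HOXA9_KO and 216 and 218 CPM in Bcat_KO (-0.78 ± 0.10, adjusted p = 0.000739). Fbl, the fibrillarin methyltransferase, had 261 and 267 CPM in HOXA9_KO and 358 and 377 CPM in Bcat_KO (-0.48 ± 0.07, adjusted p = 0.00188), Nop56, its partner in box C/D particles, differed by -0.47 ± 0.07 (adjusted p = 0.00236), and Ncl, nucleolin, by -0.43 ± 0.07 (adjusted p = 0.00216). In 15 of the 16 calls Bcat_KO lay above HOXA9_KO, dKO and WT, while 76.1% of all called genes had Bcat_KO above or below them. The ribosomal protein genes themselves did not follow: of 75, 5 were higher and 6 lower, with a median of 0.01 whose sign depended on the scaling. Rpl15 was lowest with -0.52 ± 0.07 (adjusted p = 0.000764), and Rpl10a was also lower (-0.42 ± 0.07, adjusted p = 0.00323), while Rpl30 was higher (0.40 ± 0.07, adjusted p = 0.00363).

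Differences in the cell cycle were small. Of 60 DNA replication genes 8 were lower in HOXA9_KO and none higher (median -0.12), and of 39 mitosis genes 6 were lower and none higher (median -0.15). A single replication call, that of Rfc1, the clamp loader subunit, was kept in every fit without 1 library, and it stood at 113 and 115 CPM in HOXA9_KO and 160 and 164 CPM in Bcat_KO (-0.51 ± 0.09, adjusted p = 0.0051). The helicase subunit Mcm2 had 322 and 332 CPM in HOXA9_KO and 404 and 406 CPM in Bcat_KO (-0.31 ± 0.07, adjusted p = 0.0161), a call lost whichever library was left out, at adjusted p of up to 0.114. Mki67, the proliferation antigen Ki-67, had 157 and 188 CPM in HOXA9_KO and 388 and 387 CPM in Bcat_KO (-1.17 ± 0.25, adjusted p = 0.0112, and 0.0581 without HOXA9_KO S4), while Ccnb1 and Bub1b, which act in mitosis, were not called (-0.05 ± 0.25 and 0.00 ± 0.14). WT lay by HOXA9_KO for Mki67, at 176 and 144 CPM. Of 31 DNA damage and p53 target genes 3 were higher and 5 lower. Ccng1, a p53 target, was higher at 94.4 and 91.2 CPM in HOXA9_KO and 60.6 and 53.4 CPM in Bcat_KO (0.70 ± 0.08, adjusted p = 0.000573), and Mdm2, another target and the ligase that restrains p53, was lower (-0.56 ± 0.11, adjusted p = 0.0083, and 0.0655 without HOXA9_KO S5).

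Chromatin regulators were mostly lower in HOXA9_KO. Of 33 Polycomb, trithorax and DNA methylation genes, 12 were lower and 2 higher (median -0.21), and 8 of the 12 kept their calls in every fit without 1 library. Dot1l, the histone H3 lysine 79 methyltransferase, had 38.6 and 44 CPM in HOXA9_KO and 111 and 100 CPM in Bcat_KO (-1.35 ± 0.13, adjusted p = 0.00017). Kdm6b, a demethylase of histone H3 lysine 27, had 93.9 and 93.6 CPM in HOXA9_KO and 278 and 278 CPM in Bcat_KO (-1.57 ± 0.22, adjusted p = 0.00142). Dnmt1, the maintenance DNA methyltransferase, had 326 and 312 CPM in HOXA9_KO and 485 and 485 CPM in Bcat_KO (-0.61 ± 0.08, adjusted p = 0.000764). WT lay near HOXA9_KO for Dot1l, Kdm6b and Dnmt1. In 12 of the 14 calls of the list Bcat_KO stood beyond all other libraries shown, as it did in 76.1% of all called genes. The Polycomb methyltransferase Ezh1 went the other way, with 68.6 and 60.9 CPM in HOXA9_KO and 33.5 and 32.4 CPM in Bcat_KO (0.97 ± 0.12, adjusted p = 0.000739), whereas its paralog Ezh2 was not called (0.01 ± 0.13).

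In metabolism, 16 of 73 nuclear genes of oxidative phosphorylation were higher and 2 lower (median 0.18), of which 3 of the 16 kept their calls in every fit without 1 library. Uqcrb, a subunit of complex III, led them with 85 and 81.2 CPM in HOXA9_KO and 52 and 46.8 CPM in Bcat_KO (0.75 ± 0.09, adjusted p = 0.000573). In all 18 calls Bcat_KO stood beyond the other libraries shown, as it did in 76.1% of all called genes. Of 21 glycolysis genes 1 was higher and 5 lower (median -0.19), with Pgam1, a phosphoglycerate mutase, at 62.7 and 64.9 CPM in HOXA9_KO and 136 and 120 CPM in Bcat_KO (-1.01 ± 0.09, adjusted p = 8.65e-05). Among 27 amino acid stress genes, Vldlr, Slc7a5 (-0.58 ± 0.08, adjusted p = 0.00144) and Phgdh (-0.45 ± 0.06, adjusted p = 0.00118) were among 6 lower ones, and Ddit4 (0.86 ± 0.10, adjusted p = 0.000629) among 4 higher ones. Of 33 proteasome genes 3 were higher and 2 lower, and of 23 cholesterol synthesis genes 1 was higher and 1 lower.

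Wnt pathway and target genes did not form a block. Of 28 tested, 7 were higher and 2 lower in HOXA9_KO (median 0.14, and -0.031 with a filter at a mean of 5 CPM). Among the 7 is Ctnnb1 itself, the gene targeted in Bcat_KO. Jup, which encodes γ-catenin, the close relative of β-catenin, had 27.6 and 33 CPM in HOXA9_KO and 10.9 and 11.5 CPM in Bcat_KO (1.43 ± 0.15, adjusted p = 0.000248), with dKO at 26.9 and 29.8 CPM and WT at 24.8 and 21.4 CPM, so the low level was found in Bcat_KO and not in dKO. Nkd2, an inhibitor of the pathway, had 0.382 and 0.915 CPM in HOXA9_KO and no count in Bcat_KO, at least 16.9-fold higher over the floor (adjusted p = 0.00618). Axin2, the most widely used target gene, had 19 counts in HOXA9_KO and 2 in Bcat_KO, a ratio of 16.6 with a 95% counting interval from 4.0 to 147, and was not called across libraries (adjusted p = 0.078). The transcription factor genes Tcf7 and Lef1 were called higher, at 12.6 and 27.8 CPM for Tcf7 and 2.13 and 4.87 CPM for Lef1 in HOXA9_KO, against 6.99 and 5.70 CPM and 0.191 and 0.566 CPM in Bcat_KO. Both calls were lost without HOXA9_KO S5 and without Bcat_KO S3, and that of Tcf7 also without Bcat_KO S4, at adjusted p of up to 0.151 for Tcf7 and 0.108 for Lef1. Of the genes of this list 19 matched the promoter table and none held the Tcf/Lef letters CTTTGAT on either strand, against 4.29% of all genes. Likewise none of 30 long-term stem cell genes held TGATTGAT or TGATTTAT, letters bound by Hox proteins with their cofactors, against 0.862% and 1.15% of all genes. That says only that these letters are not in these windows.

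Handling-response genes were checked because dissociation and sorting can induce them. Of 27, 6 were higher and 3 lower in HOXA9_KO. Dnajb1, a heat shock cochaperone, had 653 and 1070 CPM in HOXA9_KO and 322 and 338 CPM in Bcat_KO (1.39 ± 0.20, adjusted p = 0.00142), and Atf3 had 667 and 514 CPM in HOXA9_KO and 292 and 295 CPM in Bcat_KO (1.01 ± 0.15, adjusted p = 0.00203). Hspa1a, a heat shock gene, had 61.9 and 65.1 CPM in HOXA9_KO, 29.1 and 21.6 CPM in Bcat_KO, 11 and 7.59 CPM in dKO and 350 and 284 CPM in WT. Mast cell and basophil genes gave 3 higher and 2 lower of 16, and none of these calls was kept in every fit without 1 library. Dendritic cell and monocyte genes gave 8 higher and 4 lower of 22, among them Ccr2, a monocyte chemokine receptor (1.84 ± 0.31, adjusted p = 0.00349, and 1.14 without HOXA9_KO S5) and Tcf4, the factor of plasmacytoid dendritic cells (-0.69 ± 0.09, adjusted p = 0.000925).

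The libraries of the 4 groups were also set in order gene by gene. Among all genes tested, 4805 (29.1%) had both Bcat_KO libraries beyond every library of HOXA9_KO, dKO and WT, and 2764 (16.7%) had all HOXA9_KO and dKO libraries beyond all Bcat_KO and WT libraries. HOXA9_KO alone stood beyond the other groups in 808 (4.9%), and Bcat_KO and dKO together beyond HOXA9_KO and WT in 910 (5.51%). Among the 2726 called genes these counts were 2075 (76.1%), 1209 (44.4%), 277 (10.2%) and 278 (10.2%), and a gene can show more than 1 of these orders. A called gene had to separate HOXA9_KO from Bcat_KO in nearly every case (2720 of 2726), so the shares among called genes are a description. The order that follows Hoxa9 status held for 26 of 28 calls among long-term stem cell genes, 8 of 11 among multipotent progenitor genes and 11 of 12 among platelet genes. The order in which Bcat_KO alone stands out held for 12, 7 and 3 of those calls, but for all 12 erythroid calls, 15 of 16 granulocyte calls and all 11 calls in antigen presentation. The order that follows β-catenin status, Bcat_KO and dKO beyond HOXA9_KO and WT, held for 8 of 13 B cell calls and 7 of 9 calls among handling-response genes. β-catenin was also targeted in dKO, where Ctnnb1 was at 227 and 235 CPM, but dKO differs from Bcat_KO in Hoxa9 as well. An order with Bcat_KO alone beyond the other groups is thus not shared by both groups with β-catenin targeted, and its cause was not tested.

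**Figure D5:**
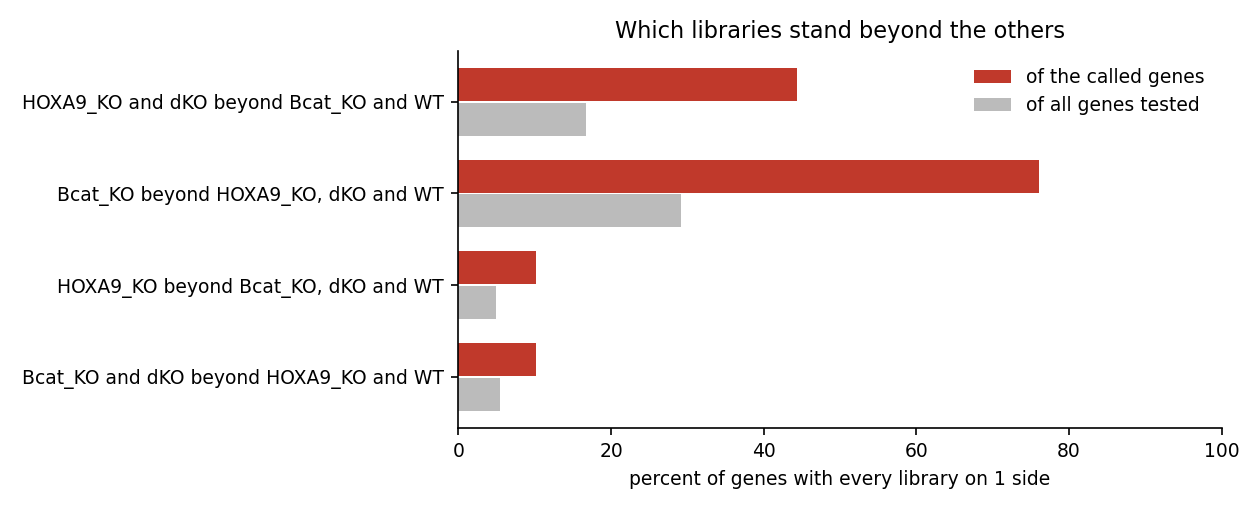
Percent of genes (horizontal axis) in which every library of the first-named groups lies beyond every library of the others (vertical axis), for the 2726 called genes (red) and all 16503 genes tested (grey). Bcat_KO alone stands apart in 76.1% of the called genes and 29.1% of all genes tested, and HOXA9_KO alone in 10.2% and 4.9%.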

How the data were processed

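RNA of LSK cells was counted per gene. The deposited values are gene counts: the submitters' processing notes name Trim Galore 0.6.6, STAR 2.7.6a, featureCounts and the build GRCm38/mm10. Per the labels' protocols, libraries were made with a directional kit. The sources used here give neither alignment settings nor annotation release nor strandedness of counting. Of nonzero values 67.1 to 75.9% were even, so both mates of a pair appear to have been counted. Folds against a floor of 3 counts may then overstate the true lower bound, and counting intervals may be too narrow. Intervals and floors cover counting error only. By identifier 55230 genes were matched to GENCODE M21. The titles number replicates, but the count columns carry only S tags, which serve here as library names. WT stands under the name control in the columns.

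Genes were filtered with filterByExpr (minimum count 10) in edgeR 4.0.16 (R 4.3.3), scaled by TMM and fitted with a quasi-likelihood model of 6 group means over all 12 libraries (6 residual degrees of freedom). The contrast was HOXA9_KO minus Bcat_KO, with Benjamini-Hochberg adjustment over all 17063 genes, X, Y and mitochondrial ones included, of which the 16503 autosomal ones are reported. The SE follows from the log2 difference and its F statistic. CPM are TMM-scaled. Alternatives used limma 3.58.1 and DESeq2 1.42.0, and summaries and figures the data.table package (1.17.8), Python 3.11.15, pandas 2.3.3, scipy 1.17.1 and matplotlib 3.10.9. On counts simulated for 15638 genes of this comparison, 44.1% of 188 genes changed by a log2 of 1 and 69.4% of 193 changed by 2 were called, as were 5 of 15257 unchanged ones. The adjustment depends on the share of genes changed, which was small here beside the 16.5% called in the data. The simulated shares therefore do not measure the sensitivity of the real comparison.

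The members, gene lists and tests were chosen with earlier results of these data known. Named are Hoxa9, Ctnnb1 and Prmt1, the 15 largest called and separated protein-coding differences per direction at a mean of at least 2 CPM, up to 4 members per list with the smallest p, and Hoxa and Hoxb genes of at least 1 CPM; other list members, Hoxb5os, Psme2, Rps27 and the immunoglobulin genes were named after their values were seen. Lists were not tested as sets. A few genes that this rule names are not reported here.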

Additional observations from a re-analysis of the deposited data

How the results depend on the processing

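Scaling by DESeq2-type size factors (1562 higher, 1131 lower), by library size (1440, 1138) or by TMM without mitochondrial and haemoglobin genes (1661, 1049), no filter on low counts (2041, 997), a minimum mean of 5 CPM (1258, 1027), a filter at a multiple of the receptor gene signal (1605, 1039) and DESeq2 (2115, 1480) left the total of 2726 calls within 1.5 times. Fitting only the 4 libraries gave 717 higher and 1433 calls in all, fitting only the 8 libraries of the experiment 1021 higher, and limma-voom with quality weights 1103 higher; the cause was not tested, beyond fewer libraries in the first 2. Without 1 library the counts ranged from 903 to 1263 higher, 452 to 565 lower and 1375 to 1828 in all. Of 143 named genes, 82 kept their call and direction under every alternative run, and of 1973 gene values 161 lost the call, 3 gained it and 15 changed sign. The sign changes were in uncalled Hox genes: Hoxa2 (0.22 with limma-voom, -1.3 to 1.2 without 1 library), Hoxa3 (-0.25 to 0.36 without 1 library), Hoxa6 (-0.89 to 0.08 without 1 library), and Hoxa7, whose main value is 0.00 and which lay at -0.03, -0.04 and -0.01 under the scalings in the order above, -0.02 at 5 CPM, -0.0 with the receptor filter, -0.03 with 4 and with 8 libraries, -0.02 with DESeq2, -0.06 to 0.12 without 1 library. List medians changed sign for Wnt genes (-0.031) and Hox genes (-0.018) at 5 CPM and for cholesterol genes without HOXA9_KO S4 (-0.083 to 0.192 without 1 library), and medians near 0 crossed it for ribosomal protein genes (-0.047 to 0.072), amino acid stress genes (-0.017 to 0.047), mast cell genes (-0.321 to 0.117) and handling-response genes (-0.116 to 0.028); the median of long-term stem cell genes stayed between 0.777 and 0.967 and that of multipotent progenitor genes between -0.737 and -0.54. limma-voom did not make 24 of the named calls, 7 of genes with no count in Bcat_KO (such as Hoxb8, Ltf and Nkd2) and 17 of genes with counts there (such as Hbb-bs, Ngp, Chil3, Il2rb and Ccr9). No paired analysis was possible because the count columns carry S tags and no replicate number. Depth limits genes near the floor of 3 counts, and 2 libraries per group limit all others.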

Other observations

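Immunoglobulin genes, chosen after their values were seen, were abundant for a lineage-depleted fraction. Variable segment genes summed to 9490 and 14300 CPM in HOXA9_KO, 3480 and 4860 CPM in Bcat_KO, 25100 and 9250 CPM in dKO and 1580 and 3900 CPM in WT. Of 218 in the table, 155 were tested, and 46 were called higher and 1 lower in HOXA9_KO. That is 30.3% called in either direction, against 16.5% over all genes. Of the 46, 27 had no count in either Bcat_KO library, so these could be called only in this direction. Constant region genes summed to 18900 and 29400 CPM in HOXA9_KO and 9760 and 13300 CPM in Bcat_KO. Some segments differed between the groups and some within a group. Igkv5-39 was at 720 and 905 CPM in HOXA9_KO and had no count in Bcat_KO. Igkv3-10 was at 119 and 3110 CPM in HOXA9_KO and had no count in Bcat_KO or WT, and Ighv1-76 was at 66.9 and 1370 CPM in HOXA9_KO and at 0.508 and 0 CPM in Bcat_KO. In the other direction, Ighv1-63 was at 0 and 0.125 CPM in HOXA9_KO and at 233 and 251 CPM in Bcat_KO, and Igkv6-25 was at 106 and 140 CPM in HOXA9_KO and at 583 and 1170 CPM in Bcat_KO. Of the 10 most abundant segments per library, the 2 libraries of a group shared 5 in HOXA9_KO, 7 in Bcat_KO, 5 in dKO and 2 in WT. Segments are similar in sequence, so reads may be split between them.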
